A study of Ovis aries with 27 samples.

Results

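The major histocompatibility complex (MHC) probes of a sheep expression array were followed in the heart septum, the wall between the ventricles, of 27 fetal sheep. They were all non-control probes whose annotation text contains MHC or histocompatibility, with no requirement on brightness, which gave 27 of 15008 probes. By that text 15 probes match class I heavy chains, 11 match class II chains, and 1 (TC2807) matches the class I related molecule MR1 and is counted apart. The class II probes comprise 4 for DQ alpha, 1 for DQ beta, 1 for DR alpha, 4 for DR beta and 1 for DY alpha. For 4 of the class II probes the text gives the chain without the class.

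MHC class I molecules are carried by nearly all nucleated cells and show peptides from inside the cell to CD8+ T cells. Their heavy chain pairs with beta-2-microglobulin. Class II molecules are pairs of an alpha and a beta chain, are carried mainly by macrophages, dendritic cells and B cells, and show peptides from engulfed material to CD4+ T cells. Interferon gamma raises both classes in many cells. DY genes are a class II form found in ruminants. Both classes are highly polymorphic, so a probe designed on one allele can pair less well with the RNA of an animal that carries another.

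There were 4 groups, with 1 one-colour array per fetus. Control fetuses at 130 d of gestation (n = 6) and cortisol fetuses at 130 d (n = 6) were sampled at 129 to 131 d. Control fetuses at 140 d (n = 8, from 7 ewes, with the twins not identified) and cortisol fetuses at 140 d (n = 7) were sampled at 139 to 144 d. Cortisol, at 1 mg/kg per day, or vehicle was infused into the ewe. The infusion lasted about 10 d from about 120 d in the younger cohort and about 25 d from about 115 d in the older one, although another label gives a start at about 115 d without separating the cohorts. Age, cohort and infusion length therefore cannot be told apart. P-values measure the spread between these fetuses.

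The spots well above background made up 77.0% to 87.0% of each array, and 0 spots were saturated. The 75th percentile of intensity, to which each array was scaled, averaged 1160 ± 101 (SD, n = 6) for younger controls, 1093 ± 77.0 (SD, n = 6) for younger cortisol fetuses, 838 ± 59.3 (SD, n = 8) for older controls and 884 ± 149 (SD, n = 7) for older cortisol fetuses. The part of this brightness difference in the age comparisons was not tested. Of the 27 MHC probes, 23 were well above background on all 27 arrays. The exceptions were DQ659131 on 26 arrays, OVAR-DQA1-1088 on 22, TC2807 on 15 and DYA on 6. None of the 12 cardiomyocyte markers examined had a probe under its symbol, so the labelled tissue could not be checked that way.

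Many MHC probes are not independent measurements, because they are near copies of each other. Of 351 pairs of the 27 probes, each 60 bases long, 12 shared an identical run of at least 20 bases: 11 pairs within class I, 1 within class II and 0 between the classes. The closest class II pair, both for DQ alpha, is shown first, and a close class I pair, both ending in a stop codon, second; capitals mark the bases at which the probes of a pair differ, 4 of 60 in each pair.
OVAR-DQA1-577: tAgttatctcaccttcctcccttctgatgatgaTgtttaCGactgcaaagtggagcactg
M93431: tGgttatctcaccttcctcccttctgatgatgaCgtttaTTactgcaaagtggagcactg
OVAR-1047: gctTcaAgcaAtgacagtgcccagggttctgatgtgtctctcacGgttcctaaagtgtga
U03092: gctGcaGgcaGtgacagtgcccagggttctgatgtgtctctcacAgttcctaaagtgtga

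The 12 bases at the end of the class I pair, cctaaagtgtga, occur in 4 MHC probes, searched on the strand of the probes. Of all 15008 probes, 5 (0.0333%) hold these bases or their reverse complement. In AJ874675 and AJ874681 the 12 bases stand 37 bases before the probe's end. Probes AJ874675 (gene ovar-MHCI-C7) and AJ874681 (ovar-MHCI-H10) differ at 3 of 60 bases. Their levels moved almost together: the SD over the 27 arrays of the difference between them was 0.20 on the log2 scale, against SDs of 1.21 and 1.19 for the probes themselves. For OVAR-DQA1-577 and M93431 the SD of the difference was 0.07, and for OVAR-1047 and U03092 it was 0.20. Such pairs can bind the same transcripts, and a count of probes below is not a count of genes.

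Other probes lie in stretches with no close copy among the members. The sequences below are those of the class I probes OVAR-983, AJ874684, EF489531 and TC16824 and of the DR beta probes DQ659127 and DQ659131 (alleles C1 and G1 of DRB1 by their annotation), all of which are taken up individually in the results; no base is marked in them.
OVAR-983: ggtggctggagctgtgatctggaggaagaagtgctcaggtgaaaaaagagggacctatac
AJ874684: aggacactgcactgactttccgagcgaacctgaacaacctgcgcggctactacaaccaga
EF489531: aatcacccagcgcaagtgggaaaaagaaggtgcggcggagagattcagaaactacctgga
TC16824: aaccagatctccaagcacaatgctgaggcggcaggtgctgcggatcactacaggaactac
DQ659127: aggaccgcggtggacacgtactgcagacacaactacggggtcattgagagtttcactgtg
DQ659131: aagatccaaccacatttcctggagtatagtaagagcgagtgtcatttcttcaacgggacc

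In the sheep RefSeq table (assembly ARS-UI_Ramb_v3.0) DQA and OVAR-DRB1 lie on the same chromosome with 2 genes between them. OVAR-DRB1 and the class I gene OVAR are 156 genes apart on that chromosome, and DYA and DQA are 359 genes apart.

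In control fetuses the fitted difference between 140 d and 130 d was negative for all 27 MHC probes, and 11 of them fell at an adjusted p under 0.05 (limma, Benjamini-Hochberg over all 15008 probes), while 0 rose. The 11 are 5 of 15 class I probes and 6 of 11 class II probes. Over all probes 17.7% changed in this comparison and 7.72% fell. The median log2 difference was -1.17 over the class I probes and -1.06 over the class II probes, beside 0.03 over all probes. At an unadjusted p under 0.05 the number was 23 of 27, beside 5030 of all 15008 probes (limma). Without replicate 3 of the younger controls 2 class II probes and 0 class I probes were called, with 14 MHC probes at an unadjusted p under 0.05 (limma). Of all probes, 10.9% were called in that fit. Scaling each array to its median instead moved the median of all probes from 0.03 to 0.12 and the share of higher calls among all called probes from 56.4% to 75% (75.8% with the authors' deposited log2 table). Those 2 alternatives left 8 MHC probes called in each case, all lower, beside 22.5% and 22.6% of all probes called.

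**Figure D1:**
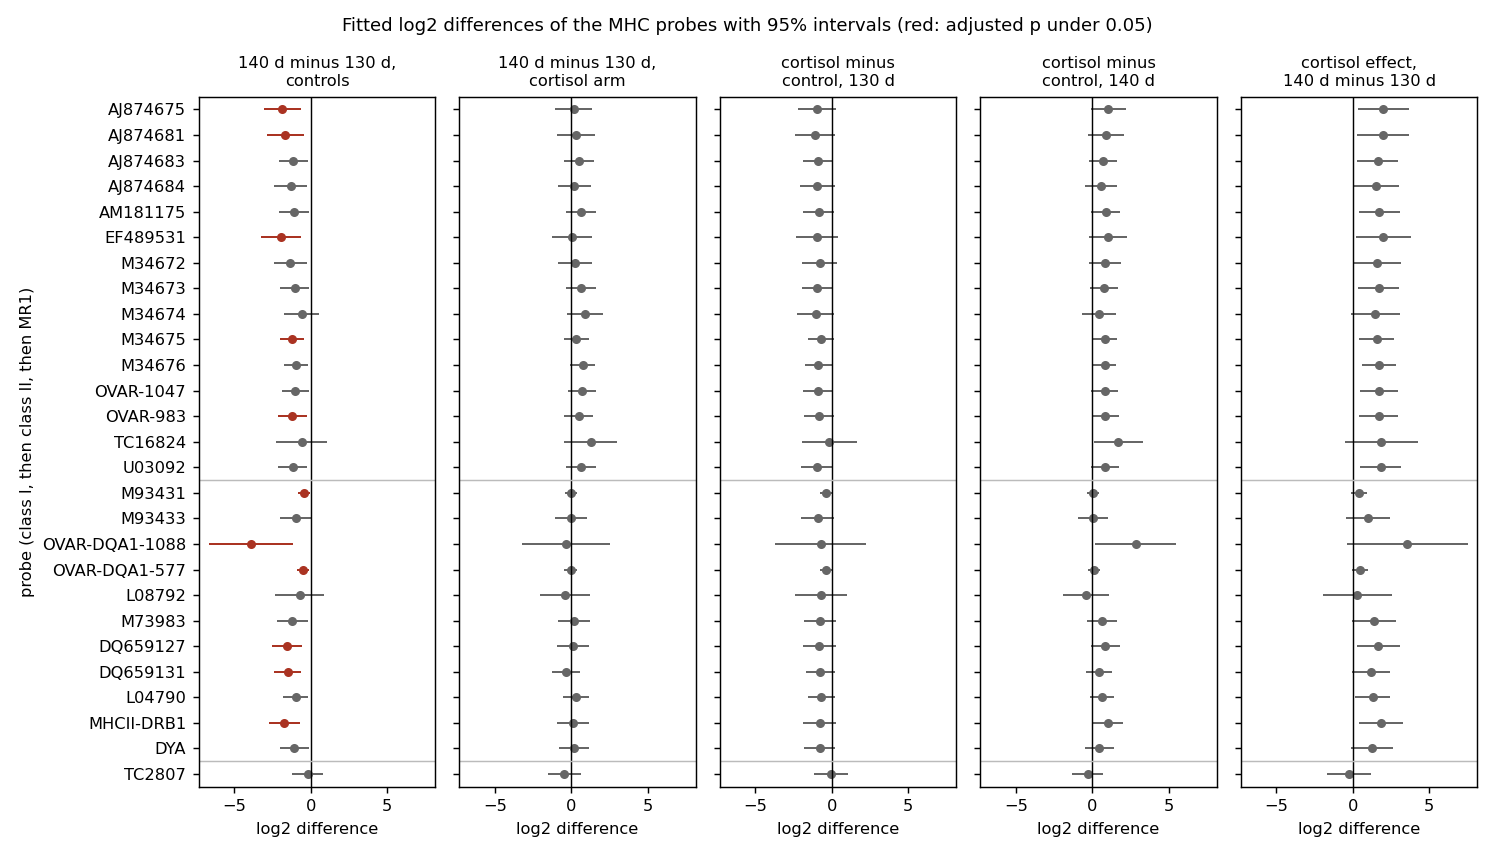
Fitted log2 differences (x axis, the same scale in every panel) of the 27 MHC probes (y axis) in the 5 comparisons, with 95% intervals; red marks an adjusted p under 0.05 and the grey lines separate class I, class II and MR1. All 27 points lie below 0 in controls between the ages, where 11 are red, and no point is red in the other 4 panels.

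Levels are given as log2 of intensity minus the 75th percentile of the same array (0 is that percentile); they can be compared between arrays for one probe but not between probes. Among the class I heavy chain probes, M34675 ran from 5.69 through a median of 6.92 to 7.78 in controls at 130 d and from 4.47 through 5.81 to 6.17 in controls at 140 d. All 8 older controls lay below the mean of the younger ones, although the ranges overlap. The difference was -1.23 ± 0.36 (SE), a 2.35-fold lower signal at 140 d (adjusted p = 0.0218). With cortisol this probe ran from 5.12 through 6.29 to 6.71 at 130 d and from 5.58 through 6.34 to 7.49 at 140 d.

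The EF489531 probe showed the largest class I difference, -1.95 ± 0.59 (SE), 3.86-fold lower at 140 d (adjusted p = 0.0259). Its levels in controls ran from -1.71 through -0.01 to 2.10 at 130 d and from -3.53 through -1.93 to -0.56 at 140 d. Each of the 8 older controls was below the younger mean, and the ranges overlap between -1.71 and -0.56. The cortisol fetuses covered -2.11 to 0.85 (median -1.28) at 130 d and -2.86 to 1.24 (median -1.03) at 140 d, so both ages span nearly the same range.

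The near-identical pair AJ874675 and AJ874681 fell together. AJ874675 ran from 2.82 through 4.04 to 5.69 in controls at 130 d and from -0.60 through 2.37 to 4.10 in controls at 140 d, a difference of -1.85 ± 0.55 (SE), 3.61-fold lower (adjusted p = 0.0231). AJ874681 ran from 2.83 through 4.24 to 5.83 and from -0.48 through 2.70 to 4.35, with a difference of -1.66 ± 0.56 (SE; adjusted p = 0.0400). The low end at 140 d is 1 fetus, replicate 5, and 1 older control lay above the younger mean for AJ874681. With cortisol AJ874675 ran from 2.50 through 3.14 to 4.00 at 130 d and from 2.05 through 3.57 to 4.07 at 140 d. In the same groups AJ874681 ran from 2.36 through 3.16 to 3.84 and from 2.27 through 3.72 to 4.30, and for both probes these ranges overlap almost completely.

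OVAR-983 was the last of the called class I probes. It ran from 3.45 through 4.69 to 6.34 in controls at 130 d and from 2.08 through 3.75 to 4.37 in controls at 140 d, and the difference was -1.19 ± 0.42 (SE; adjusted p = 0.0482), close to the threshold. With cortisol the values were 2.96 through 3.87 to 4.70 at 130 d and 3.35 through 4.22 to 5.37 at 140 d. The cortisol fetuses thus lay slightly higher at 140 d by the median, within overlapping ranges.

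The class I probe with the highest mean signal, M34676, did not pass the threshold. It ran from 6.08 through 7.14 to 8.17 in controls at 130 d and from 5.17 through 6.32 to 6.73 in controls at 140 d, a difference of -0.95 ± 0.35 (SE; adjusted p = 0.0562). One array, cortisol 130 d replicate 3, had an outlying spot for this probe and was left out, and the other 5 gave 6.66, 5.50, 6.18, 6.47 and 6.30. Cortisol fetuses at 140 d ran from 6.10 through 6.95 to 8.16. Both the younger controls and the older cortisol fetuses reached above 8, while the other 2 groups stayed below 7. AJ874684 differed by -1.31 ± 0.49 (SE; adjusted p = 0.0624). The 9 class I probes besides M34676 that were not called had differences in controls from -1.34 (M34672) to -0.60 (TC16824), with adjusted p from 0.0601 to 0.63.

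The DR genes encode the class II molecule that is usually the most abundant. Of the 4 DR beta probes, 3 fell between the ages in controls. MHCII-DRB1 ran from -0.46 through 0.10 to 2.48 in controls at 130 d and from -3.62 through -0.97 to -0.39 in controls at 140 d. The ranges overlap in 1 older value, replicate 6 at -0.39, which lies above the lowest younger value, replicate 2 at -0.46. The difference was -1.72 ± 0.47 (SE), 3.30-fold lower (adjusted p = 0.0143), and it was called in all 14 fits that left out 1 control array.

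DQ659131 ran from -4.91 through -3.64 to -1.60 in controls at 130 d and from -6.52 through -4.89 to -4.10 in controls at 140 d. The lowest of these, replicate 2 at 140 d, was not well above background. Its difference of -1.51 ± 0.40 (SE) had the smallest adjusted p among the MHC probes (limma, 0.0124), and it too was called in all 14 such fits. Over 11 alternatives of processing and model it was called in 10, with differences from -1.79 to -0.51. DQ659127 ran from -3.29 through -2.13 to 0.03 and from -5.93 through -3.32 to -2.71, a difference of -1.55 ± 0.46 (SE; adjusted p = 0.0229). For both allele probes the highest younger value is replicate 3 and the lowest older value is replicate 2.

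With cortisol the DR beta probes kept to narrow ranges at 130 d. MHCII-DRB1 lay between -0.80 and 0.01 (median -0.28) there, DQ659127 between -3.57 and -2.40 (median -2.77) and DQ659131 between -4.69 and -3.93 (median -4.19). At 140 d the cortisol fetuses were more spread, with -1.18 through -0.43 to 1.61 for MHCII-DRB1, -3.42 through -3.03 to -1.23 for DQ659127 and -5.89 through -4.60 to -3.42 for DQ659131. The top value of all 3 probes at 140 d with cortisol came from replicate 4.

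The DR beta probe with the highest mean signal, L04790 (DR beta 3), ran from -0.62 through 0.03 to 2.18 in controls at 130 d and from -1.82 through -0.73 to 0.13 in controls at 140 d (difference -0.99 ± 0.37 SE; adjusted p = 0.0612). The cortisol fetuses ran from -0.89 through -0.26 to -0.08 at 130 d and from -0.82 through -0.16 to 1.61 at 140 d. M73983, the probe for the DR alpha chain, the partner of all DR beta chains, ran from 0.26 through 1.03 to 3.51 and from -1.58 through 0.33 to 0.97 in younger and older controls (difference -1.20 ± 0.46 SE; adjusted p = 0.0660). With cortisol it ran from -0.13 through 0.67 to 1.38 at 130 d and from -0.15 through 0.43 to 2.69 at 140 d. Neither passed the threshold, and for both the groups overlap.

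DQ molecules are the other classical class II pair in sheep. OVAR-DQA1-577 ran from -0.89 through -0.66 to 0.45 in controls at 130 d and from -1.22 through -1.02 to -0.86 in controls at 140 d, a difference of -0.51 ± 0.16 (SE; adjusted p = 0.0336). Its near copy M93431 ran from -0.71 through -0.55 to 0.50 and from -1.03 through -0.87 to -0.73, a difference of -0.45 ± 0.16 (SE; adjusted p = 0.0460). M93431 was the only MHC probe whose younger and older controls did not overlap, its lowest younger value being -0.71 and its highest older value -0.73. Over all probes 4.92% showed no overlap. M93431 was called in only 3 of the 14 fits that left out 1 control array, and OVAR-DQA1-577 in 11. Without control 130 d replicate 3 the difference of M93431 was -0.27. With cortisol OVAR-DQA1-577 ran from -1.02 through -0.88 to -0.52 at 130 d and from -1.25 through -1.04 to -0.43 at 140 d. M93431 ran from -0.92 through -0.83 to -0.45 and from -1.25 through -0.96 to -0.34 in the same groups. These 2 probes had the smallest spread of all members within groups, with SDs of 0.31 and 0.29.

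OVAR-DQA1-1088 split the older controls. It was well above background in all 6 younger controls, at -4.06 through -1.58 to 1.15, but in only 4 of 8 older controls, where it read -3.21, -2.23, -1.78 and -2.60. The other 4 older controls read -8.49, -8.67, -8.67 and -8.73 and were not well above background. The fitted difference of -3.92 ± 1.31 (SE; adjusted p = 0.0402) rests on those 4 arrays and is not a fold of a measured signal. With cortisol all 6 fetuses at 130 d were well above background, at -3.97 through -2.25 to -1.21, and so were 6 of 7 at 140 d. The remaining one, replicate 2, read -8.22, and the group ran from there through -2.05 to 0.91.

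The DQ beta probe L08792, the class II probe with the highest mean signal, ran from -0.96 through 2.08 to 3.65 in controls at 130 d and from 0.12 through 1.39 to 2.03 in controls at 140 d. The difference was -0.73 ± 0.74 (SE; adjusted p = 0.52). With cortisol it ran from -0.08 through 1.34 to 2.26 at 130 d and from -3.11 through 0.90 to 3.92 at 140 d, so that group alone spans the range of the other groups. The fourth DQ alpha probe, M93433, had a difference of -0.98 ± 0.46 (SE; adjusted p = 0.14) in controls.

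DYA, the DY alpha chain, was near background: well above it in 4 of 6 younger controls, 0 of 8 older controls and 1 fetus of each cortisol group. Its readings ran from -7.27 through -6.44 to -5.31 in controls at 130 d, and from -8.72 through -7.53 to -6.09 in controls at 140 d. In the cortisol groups they ran from -8.34 through -7.01 to -6.08 at 130 d and from -8.40 through -7.05 to -6.04 at 140 d. No fold is given: the bound for the older controls, averaged over arrays from the higher of the lowest signal well above background and the probe's own, was -6.17, and the mean of the younger controls, -6.39, lay below it. TC2807 (MR1) had a difference of -0.21 ± 0.47 (SE; adjusted p = 0.79) in controls.

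**Figure D2:**
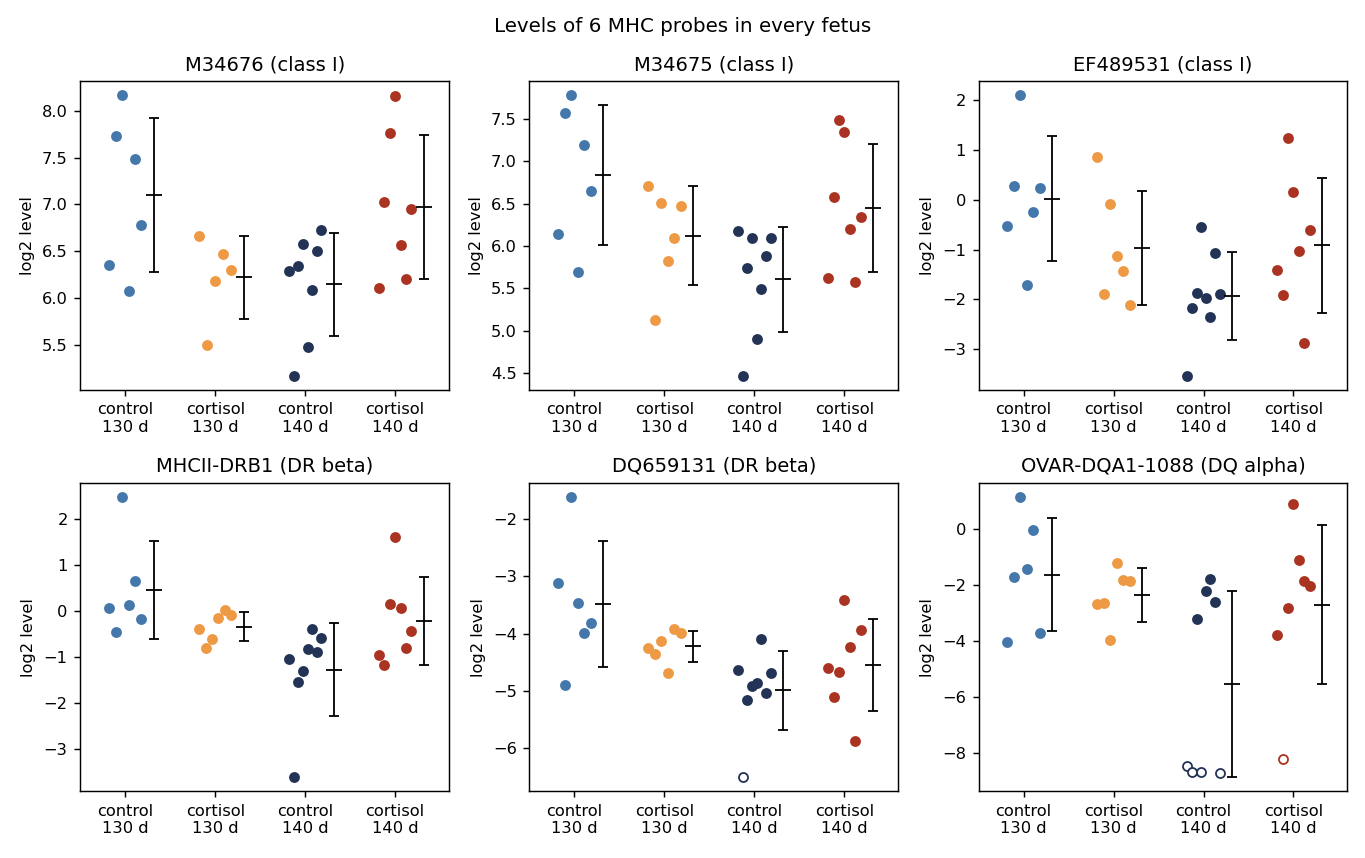
Log2 level (y axis, relative to the 75th percentile of the array) of 3 class I and 3 class II probes in every fetus (points) of the 4 groups (x axis), with the group mean and SD beside them; open points are arrays on which the probe was not well above background. For MHCII-DRB1 a single younger control reaches 2.48 and a single older control falls to -3.62, and OVAR-DQA1-1088 splits into fetuses at -4.06 or above and fetuses at -8.22 or below.

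Between the ages in cortisol fetuses 0 of 27 MHC probes were called (limma), beside 10.4% of all probes. At an unadjusted p under 0.05 there were 0 MHC probes, beside 3724 of all 15008 probes (limma). The class I median was 0.50 and all 15 class I probes were positive, from 0.05 (EF489531) to 1.26 (TC16824). The class II median was -0.01, with 5 probes positive and 6 negative. For MHCII-DRB1 the difference was 0.12 ± 0.48 (SE), with a 95% interval from -0.87 to 1.1. For M34676 it was 0.75 ± 0.37 (SE; adjusted p = 0.22).

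Cortisol against control at 130 d called 0 MHC probes, and 0% of all probes (limma; 659 of all probes and 5 MHC probes at an unadjusted p under 0.05). All 27 MHC probes were lower with cortisol, with a median of -0.92 for class I and -0.74 for class II beside 0.02 for all probes. The smallest p was that of M34676, at -0.88 ± 0.39 (SE; unadjusted p = 0.0325). MHCII-DRB1 differed by -0.79 ± 0.50 (SE), with a 95% interval from -1.81 to 0.24. The replicates of the 2 groups overlapped for every MHC probe, as they did for all but 0.446% of all probes. Without replicate 3 of the younger controls the medians were -0.60 and -0.35 and 0 MHC probes had an unadjusted p under 0.05 (limma). With normexp background correction the class II median was -0.27.

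At 140 d the direction of the cortisol difference was the other way. Again 0 MHC probes and 0% of all probes were called (limma; 751 of all probes and 8 MHC probes at an unadjusted p under 0.05). All 15 class I probes and 10 of 11 class II probes were higher with cortisol, the exceptions among the members being L08792 and TC2807. The class I median was 0.84 and the class II median 0.46, beside -0.04 for all probes. M34676 differed by 0.82 ± 0.33 (SE; unadjusted p = 0.0202), M34675 by 0.84 ± 0.35 and MHCII-DRB1 by 1.05 ± 0.45, each with an adjusted p of 0.868. TC16824 differed by 1.71 ± 0.75 (SE). None of these passed after adjustment. The 8 MHC probes at an unadjusted p under 0.05 became 2 without replicate 2 of the older controls and 0 without replicate 4 of the older cortisol fetuses. With normexp the class II median was 0.25.

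The test of the difference itself, the cortisol effect at 140 d minus that at 130 d, called 0 MHC probes and 0% of all probes (limma; 917 of all probes and 18 MHC probes at an unadjusted p under 0.05). The median was 1.70 over the class I probes, all 15 positive, and 1.27 over the class II probes, all 11 positive, beside -0.06 over all probes. M34676 had the smallest p, with a difference of 1.70 ± 0.51 (SE), a 95% interval from 0.65 to 2.75, an unadjusted p of 0.0027 and an adjusted p of 0.369. MHCII-DRB1 gave 1.84 ± 0.67 (SE; adjusted p = 0.57). With normexp the class II median was 0.68. The 5 comparisons share the same 4 groups, and the controls at 130 d and at 140 d each enter several of them, so their directions are not separate pieces of evidence.

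**Figure D3:**
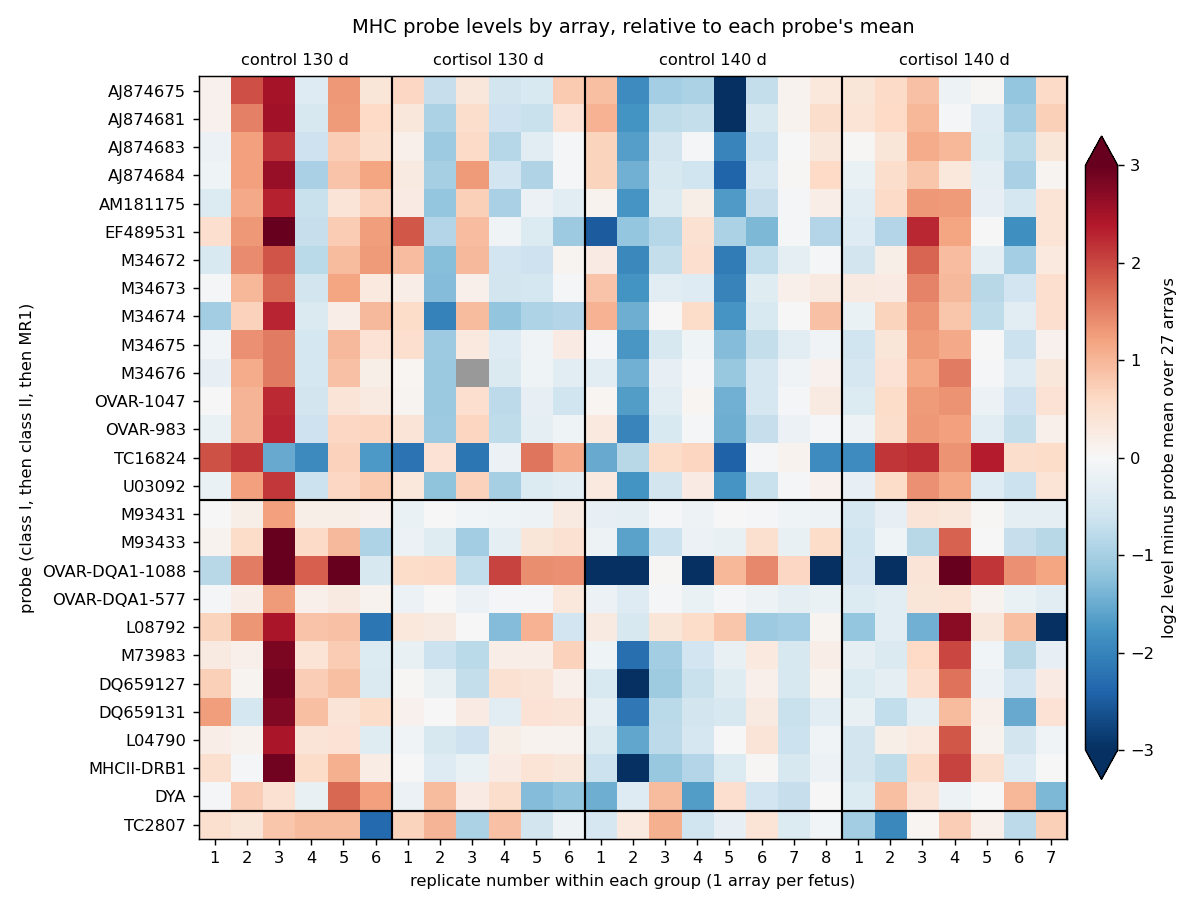
Log2 level of each MHC probe (rows) on each array (columns, grouped by condition) minus that probe's mean over the 27 arrays; red is higher, blue is lower, the colour scale ends at 3 in either direction, and the grey cell is the value left out. Replicate 3 of the younger controls is the highest array for 14 of 15 class I and 9 of 11 class II probes, and replicates 2 and 5 of the older controls hold most of the lowest class I values.

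Most MHC probes varied widely between fetuses of the same group. The median within-group SD was 0.84 over the class I probes and 0.88 over the class II probes, beside 0.32 over all 15008 probes. A few fetuses carried much of the range. Replicate 3 of the controls at 130 d was the highest of all 27 arrays for 14 of 15 class I probes and 9 of 11 class II probes. Replicate 5 of the controls at 140 d was the lowest for 7 class I probes and replicate 2 for 6 class I and 6 class II probes.

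The exception in class I was TC16824, whose SD of 1.53 is the largest of its class. In younger controls it read -0.75, -0.52, -4.18, -4.57, -1.96 and -4.39 in replicates 1 to 6. Replicate 3, the top array of the other class I probes, is thus among its low readings. OVAR-DQA1-1088 had an SD of 2.56 and L08792 one of 1.44, the largest of class II. Replicate 4 of the cortisol fetuses at 140 d read 3.92 for L08792 and replicate 7 read -3.11.

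The classes did not follow each other in every fetus. As the mean deviation from the probe means, replicate 5 of the controls at 140 d was the lowest array for class I (-2.0) but ranked 13 of 27 for class II (0.05). Replicate 4 of the controls at 130 d was at -0.69 for class I and at 0.57 for class II. Replicate 4 of the cortisol fetuses at 140 d ranked 2 of 27 for class II, at 1.61, and 4 of 27 for class I, at 0.94.

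The number of calls in controls depended on single arrays. Of the 14 fits that each left out 1 control array, MHCII-DRB1 and DQ659131 were called in all 14. AJ874675, M34675 and DQ659127 were called in 13, EF489531 in 12 and OVAR-DQA1-577 in 11. AJ874681 and OVAR-DQA1-1088 were called in 6, OVAR-983 in 5 and M93431 in 3. Without replicate 3 of the younger controls 2 MHC probes were called, MHCII-DRB1 (-1.32) and DQ659131 (-1.13), beside 10.9% of all probes, and the class medians were -0.88 and -0.77. Without replicate 5 of the younger controls 7 were called, and without replicate 2 of the older controls 6. Over all probes 14.8% and 17.7% were called in those fits. When only the 2 control groups were fitted, 4 MHC probes were called, beside 17.2% of all probes, and with normexp background correction 3, beside 2.83% of all probes.

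The 27 arrays lay on 5 slides, and 3 of the slides held all 4 groups. With slide as a fixed block 9 MHC probes were called in controls between the ages, and with slide as a random block 11. Of all probes, 17% and 19% were called in those fits. Within slides 2, 3 and 4 the class I median was -1.26, -0.95 and -2.36 and the class II median -1.28, -2.26 and -0.36, with 0 MHC probes called in any single slide (3, 0 and 0 of all probes). The cortisol effect at 140 d had class I medians of 1.71, 0.64, 1.16 and 0.54 and class II medians of 1.23, 1.29, -0.20 and -0.15 within slides 2 to 5. At 130 d the cortisol effect had class I medians of -0.96, -0.90 and -0.82 and class II medians of -0.41, -1.87 and 0.02 within slides 2 to 4. In the cortisol arm the age difference had class I medians of 1.28, 0.43 and -0.52 and class II medians of 0.13, 1.21 and -0.64. The difference between the cortisol effects had class I medians of 2.52, 1.51 and 1.98 and class II medians of 1.53, 3.37 and -0.25.

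Genes that serve the MHC were measured on the same arrays. Of 4 measured class I processing genes, 1 fell in controls between the ages, beside 7.72% of all probes. It was HSPA5, an endoplasmic reticulum chaperone, by 0.63 on the log2 scale (limma, adjusted p = 0.0380). B2M, which encodes beta-2-microglobulin, differed by -0.67 ± 0.26 (SE; adjusted p = 0.0680), and PSMB8, an immunoproteasome subunit, by -0.78 ± 0.37 (SE; adjusted p = 0.13). B2M ran from 4.62 through 5.25 to 6.67 in controls at 130 d and from 4.27 through 4.59 to 5.55 in controls at 140 d. The groups overlap, as they do for every class I probe.

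Among 7 measured genes of class II processing and co-stimulation, 3 fell in controls between the ages, beside 7.72% of all probes. CTSS, the protease that trims the invariant chain, differed by -1.37 ± 0.30 (SE; adjusted p = 0.0042), CD86 by -1.28 ± 0.34 (adjusted p = 0.0130) and CD40 by -1.05 ± 0.27 (adjusted p = 0.0107). CD86 and CD40 are co-stimulatory molecules of antigen-presenting cells. CTSS ran from -1.03 through -0.38 to 1.62 in younger and from -1.87 through -1.59 to -1.04 in older controls. These ranges only just do not overlap, and 4.92% of all probes showed no overlap in this comparison.

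Genes of the interferon gamma pathway changed in controls in both directions. IRF1, a transcription factor, fell by 1.66 on the log2 scale (adjusted p = 0.0047). CXCL10, a chemokine, differed by -4.49 ± 0.91 (SE; adjusted p = 0.0021) and was well above background on 23 of 27 arrays. IFNG itself rose, by 0.69 ± 0.12 (SE; adjusted p = 0.00053), from a median of -4.52 to one of -3.83. IRF2, which opposes IRF1, rose by 0.32 ± 0.11 (SE; adjusted p = 0.0440). Both IFNG and IRF2 read below the 75th percentile in every control. The part of the brightness difference between the arrays in these rises was not tested.

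All 4 measured genes induced by type I interferon fell in controls, beside 7.72% of all probes. ISG15, MX1 and MX2 fell by 3.01, 2.06 and 1.32, and RTP4 by 1.1 (limma, adjusted p from 0.0014 to 0.0420). ISG15 ran from 1.61 through 1.95 to 5.40 in controls at 130 d and from -3.02 through -0.13 to 1.16 in controls at 140 d. The top value again came from replicate 3 of the younger controls, whose mean over the list was 3.35 above the probe means. A further list of MHC-binding receptors, T cell receptor chains and MHC-like molecules had 6 measured genes: CD4, FCGRT, CD1D, CD3E, CD3D and CD247. Of these, 0 passed in controls, beside 17.7% of all probes (limma). At an unadjusted p under 0.05 there were also 0, beside 5030 of all 15008 probes (limma). CD4 was not well above background on any array (0 of 27).

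These lists hold 4, 7, 5, 4 and 6 measured genes. In the cortisol arm between the ages 3 of the genes passed (limma), beside 10.4% of all probes. All 3 were lower at 140 d: HSPA5 (adjusted p = 0.0398), CD40 (0.0322) and CD247, a T cell receptor signalling chain (-0.72 ± 0.20 SE, adjusted p = 0.0247). For both comparisons of cortisol with control and for their difference 0 list genes passed. At 130 d IFNG (0.43 ± 0.13 SE; adjusted p = 0.70) and IRF1 (-1.26 ± 0.40) had the smallest p among them, and at 140 d CD247 (-0.55 ± 0.19; adjusted p = 0.868). For the difference of the effects these were IRF1 (2.11 ± 0.54; adjusted p = 0.31) and IFNG, of opposite sign (-0.66 ± 0.17; adjusted p = 0.32). B2M gave a difference of 1.08 ± 0.37 (adjusted p = 0.48).

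Leukocytes carry most class II protein. Of 8 measured leukocyte markers, 3 fell in controls between the ages, beside 7.72% of all probes (limma). They were ITGB2 by 1.02 (adjusted p = 0.0059), FCER1G by 1.16 (adjusted p = 0.0152) and LYZ by 1.41 (adjusted p = 0.0212). The median over the 8 was -0.75, with 7 negative, CD14 at -0.10 and CD4 above 0. For cortisol against control at 140 d their median was 0.08, with 5 positive and 3 negative. Their mean deviation ran from -0.02 to 1.05 in controls at 130 d, from -0.42 to 0.36 with cortisol at 130 d, from -0.66 to 0.26 in controls at 140 d and from -0.42 to 0.63 with cortisol at 140 d. The highest array was again replicate 3 of the younger controls and the lowest replicate 2 of the older controls. CD4 was not well above background on any array (0 of 27) and ITGAM was on 9.

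**Figure D4:**
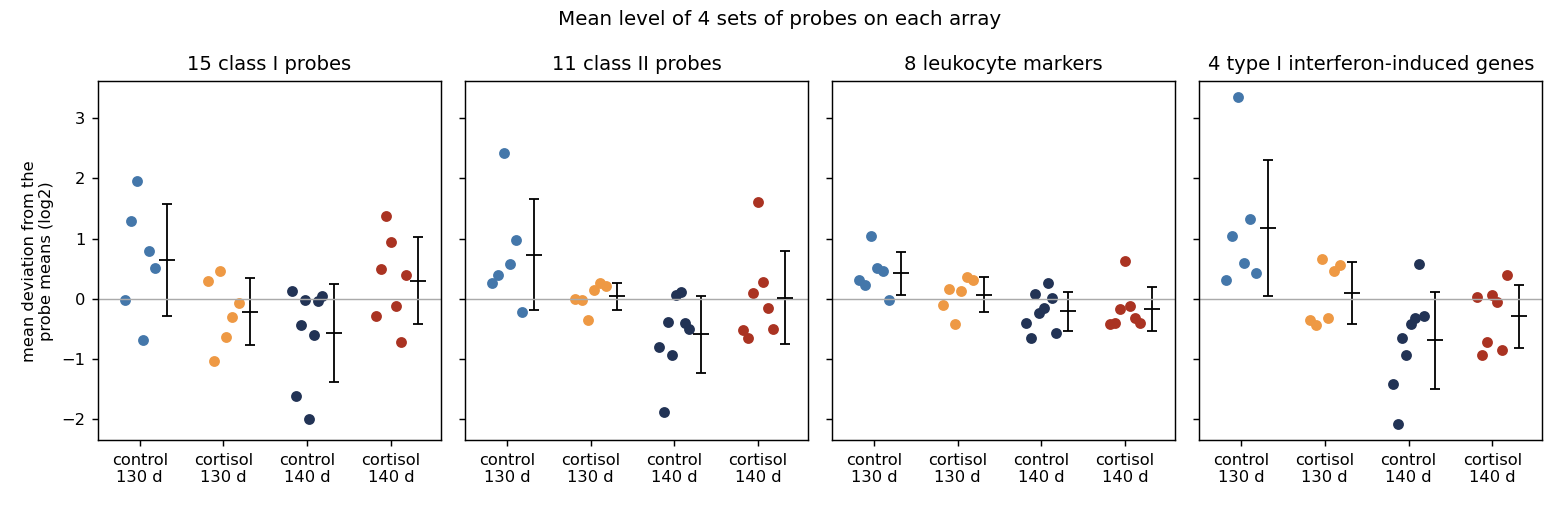
Mean deviation on the log2 scale (y axis) of 15 class I probes, 11 class II probes, 8 leukocyte markers and 4 type I interferon-induced genes from their probe means on every array (points) of the 4 groups (x axis), with the group mean and SD. The highest array of every panel belongs to the controls at 130 d, at 1.96, 2.43, 1.05 and 3.35.

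In these bulk samples fewer cells of a type and less RNA per cell cannot be told apart. Both red blood cell genes, HBB and AHSP, fell between the ages in controls (limma, -2.0 ± 0.58 and -3.26 ± 0.71 SE, adjusted p = 0.0209 and 0.0035), beside 7.72% of all probes. AHSP was well above background in only 4 of 8 older controls, so its difference is not a fold of a measured signal. As a mean deviation, older controls 1 to 5, on slides 2 to 4, read -2.88 to -1.85. Older controls 6, 7 and 8, on slide 5, read 0.25, 0.93 and -0.23. Of 2 endothelial and 3 fibroblast markers 0 passed there, beside 17.7% of all probes (limma). At an unadjusted p under 0.05 there were 0 and 3, beside 5030 of all 15008 probes (limma). The part of leukocyte, blood cell or fibroblast content in the MHC differences was not tested.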

How the data were processed

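RNA from 27 septum samples was labelled with Cy3 and hybridised to one-colour Agilent arrays, per the labels. Per the file headers, background subtraction and detrending had been applied to the deposited spot intensity values, with no scaling across arrays. The submitters' processing notes name Agilent Feature Extraction 10.1.1.1. The authors' deposited table holds log2 values: each column equalled log2 of the scanner's processed intensity minus a constant per array (largest residual SD 2.1e-06; column medians 0.09 to 0.12), and what set that constant is not given in the sources used here. The direction is that of the intensity.

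Here each array's 75th percentile of processed intensity was subtracted on the log2 scale, outlying spots were dropped, and spots sharing a probe were averaged. All 15008 non-control probes were tested, with no brightness filter, with limma 3.58.1 (lmFit, eBayes; R 4.3.3), with 4 groups in a single fit, no batch term, and Benjamini-Hochberg adjustment over all of them (threshold 0.05, 2-sided). The script was tested on simulated data. Shared sequence was the longest identical run between probes, at least 20 bases. Files' gene names and RefSeq accessions named 1259 probes for 789 genes. A gene with several probes was represented by the one with the highest mean.

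The MHC members, the gene lists and the naming rule were chosen with earlier results of these data known. Named individually are all called members, the brightest member of each class and chain, and up to 3 members of each list by p. Alternatives were background correction (normexp, offset 50), scaling, the authors' table, a filter (well above background on at least 6 arrays, 12770 probes), outlying spots, slide, replicate block, eBayes settings, samples fitted, and leaving out each array. Replicate numbers did not pair the fetuses: correlations of same-numbered deviations ran from -0.13 to 0.29, and only some exceeded 0.1. The number of arrays limits the precision. One gene of the interferon gamma list is not reported here.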

Additional observations from a re-analysis of the deposited data

Results flagged for a closer look

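In 12 of 108 combinations of an MHC probe and a group, 1 array stood apart from the rest of its group by the gap to its nearest neighbour. Chance gives about 1 in 20 for separate combinations. These are not separate, because some probes are near copies and 4 of the 12 fall on control 130 d replicate 3. The count therefore cannot be set against that rate. Of the 12, 10 concern class II probes, 1 a class I probe and 1 MR1. The causes were not tested.

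Replicate 3 of the controls at 130 d was the high array for 4 DQ, DR alpha and DR beta probes. It read 0.50 for M93431 with the next array at -0.54, 0.45 for OVAR-DQA1-577 with the next at -0.56, 3.51 for M73983 with the next at 1.45, and 2.18 for L04790 with the next at 0.18. Replicate 2 of the controls at 140 d was the low array for 3 DR beta probes. It read -5.93 for DQ659127, -6.52 for DQ659131 (not well above background) and -3.62 for MHCII-DRB1, where the next arrays were at -3.93, -5.17 and -1.54.

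Replicate 4 of the cortisol fetuses at 140 d read 1.61 for L04790 with the next at 0.04, and 0.86 for M93433 with the next at -0.93. Replicate 6 of the cortisol fetuses at 130 d read -0.52 for OVAR-DQA1-577, above the next at -0.85. Replicate 1 of the cortisol fetuses at 140 d read -4.55 for the class I probe TC16824, below the next at -2.13. Replicate 6 of the controls at 130 d read -8.57 for TC2807, below the next at -5.86.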

How the results depend on the processing

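The count of called MHC probes in controls between the ages was 11, beside 2656 of all probes in the reported fit. It became 3 with normexp (425 of all probes called) and 4 with the control groups alone (2588 of all). Within slides 2 and 3 it was 0 (3 and 0 of all). The control groups alone and the single slides hold fewer arrays, and the cause of the lower counts was not tested. Leaving out 1 array gave 2 to 16. The lowest count was without control 130 d replicate 3 (10.9% of all probes called) and the highest without control 130 d replicate 4 (12.7%). Median scaling and the authors' table, which has no usable value for M34676, gave 8 each, beside 22.5% and 22.6% of all probes. Quantile normalization gave 12 (15.3% of all), and slide as a fixed and as a random block 9 and 11 (17% and 19%). The dim-probe filter gave 11, beside 19.1% of the filtered probes. Keeping outlying spots, and trend and robust moderation, gave 11 each (17.6% and 16.9% of all). With the replicate block, a fit with the shared number as a term, 14 were called, beside 16.6% of all probes. The numbers do not pair these fetuses, and in the 4 comparisons 1, 1, 3 and 3 of 6, 6, 6 and 7 pairs correlated best with their own number. In the other 4 comparisons 0 MHC probes were called in every setting run.

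All 27 differences in controls stayed negative except under normexp, with slide as a fixed block and within slides 3 and 4. Those that turned positive were L08792 (0.043 with slide as a fixed block, 1.47 within slide 4), TC16824 (2.32 within slide 3), DYA (0.33 with normexp) and TC2807 (0.36 with normexp, 0.45 within slide 4). In the cortisol arm M34676 turned to -0.18 and MHCII-DRB1 to -0.77 within slide 4, and leaving out 1 array gave -0.19 to 0.28 for MHCII-DRB1, negative without cortisol 140 d replicate 4.

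The pooled SD between arrays of a group was 0.77 for the class I mean and 0.69 for the class II mean, and class medians moved by more than that only within slides. Smaller moves of over 1.5 times outside the slides were class II at 130 d (-0.74 to -0.27 with normexp and -0.35 without control 130 d replicate 3), class I at 130 d (-0.92 to -0.60 without that array), and with normexp class II at 140 d (0.46 to 0.25) and in the difference of the effects (1.27 to 0.68). The class II median in the cortisol arm, -0.014, also moved by more than that factor and changed sign. It ran from -0.13 to 0.096 when 1 array was left out, and was -0.062 with normexp and 0.087 with median scaling. In controls between the ages class I became -2.36 in slide 4, and class II -2.26 in slide 3 and -0.36 in slide 4. In the cortisol arm class I became 1.28 in slide 2 and -0.52 in slide 4, and class II 1.21 in slide 3. For cortisol at 130 d class II became -1.87 and 0.021 in slides 3 and 4. For cortisol at 140 d class I became 1.71 in slide 2, and class II 1.23 and 1.29 in slides 2 and 3. For the difference of the effects class I became 2.52 in slide 2, and class II 3.37 and -0.25 in slides 3 and 4. Single slides hold 1 to 3 arrays per group, and DYA and TC2807 are limited by signal near background.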

Other observations

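OVAR-DQA1-1088 and TC16824, probes in class II and class I, fell into high and low readings within groups. For OVAR-DQA1-1088, 5 of 27 arrays were not well above background, 4 of them controls at 140 d and 1 a cortisol fetus at 140 d, and the other probes for DQ alpha were well above background on all 27 arrays. TC16824 was well above background on all 27 arrays, with readings from -5.08 in a control at 140 d to -0.30 in a cortisol fetus at 140 d, and its lowest and highest readings fell in groups of both treatments. In the younger controls the replicates that read lowest for TC16824, 3, 4 and 6, read 5.69, 2.82 and 3.57 for AJ874675.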
